A study of Sus scrofa with 6 samples.

Results

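Insulin and the insulin-like growth factors (IGF) signal through a shared set of proteins, and 10 of the genes that encode them were followed in the longissimus dorsi (LD), a long back muscle, of Laiwu pigs. The genes were chosen by name: INSR, IRS1, IRS2, GRB10, AKT2, PIK3R1, SLC2A4, IGF1, IGF2 and IGF1R. Of these 10 names, 9 were found among the 31908 Ensembl genes of the deposited table, and all 9 were among the 16333 genes that reached the minimum of 0.1 FPKM on average and were tested. The name IGF2 was not found. An Ensembl gene without a symbol lies over the RefSeq position of IGF2, and it is described separately and not counted among the 9.

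The muscle came from 3 castrated male pigs with high intramuscular fat (IMF) content, the S-H group (LW63, LW70 and LW119), and from 3 castrated male pigs with low IMF content, the S-L group (LW82, LW88 and LW90). All 6 pigs were untreated animals of 1 breed, taken from the 2 ends of the IMF range of a herd, and their age is not given in the sources used here. Each pig gave 1 library of total RNA, depleted of ribosomal RNA and made with strand information. The p values below therefore measure the spread between pigs. Expression is given in FPKM, a unit in which read fragments are scaled by transcript length and library size, and a gene value is the sum over its transcripts.

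Insulin and the IGFs bind receptor tyrosine kinases on the cell surface, the insulin receptor and the IGF1 receptor. The activated receptors phosphorylate docking proteins of the IRS family, which recruit phosphoinositide 3-kinase (PI3K), and the lipid that PI3K makes activates the kinase AKT. In skeletal muscle and fat, AKT2 signalling brings the glucose transporter GLUT4 to the cell surface, and the adaptor GRB10 binds the activated receptors and dampens their signal.

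None of the 9 genes differed between the S-H and S-L groups at the thresholds of the study, which ask for an unadjusted p below 0.01 together with a log2 fold change of 1 or more in either direction. The study set these thresholds for edgeR, while here they were applied to limma on log2(FPKM + 0.1), so the calls are not those of the study. Over all genes tested 1.25% passed these thresholds, so that a count of 0 among 9 genes does not set them apart. The groups overlapped for each of the 9 genes, against 14.0% of all genes tested for which they did not overlap. The unadjusted limma p value was below 0.05 for 0 of the 9 genes and for 7.45% of all genes. No gene of the table reached an adjusted p below 0.05 in limma with Benjamini-Hochberg adjustment, where the lowest adjusted p was 0.179, while 1217 genes had an unadjusted p below 0.05.

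The level of these genes covered a wide range. SLC2A4 was the most abundant, with a mean over the 6 pigs of 57.1 FPKM, and it was above PIK3R1 (11.4 FPKM) in 6 of 6 pigs without overlap. PIK3R1, AKT2 (10.2 FPKM), GRB10 (9.87 FPKM), IRS2 (8.39 FPKM), INSR (8.30 FPKM) and IRS1 (6.76 FPKM) lay close together, and neighbours in this order did not differ beyond their spread. IGF1R (3.48 FPKM) and IGF1 (2.24 FPKM) were the least abundant, with IRS1 above IGF1R in 4 of 6 pigs and IGF1R above IGF1 in 5 of 6. SLC2A4 thus lay above 95.9% of the genes tested and IGF1 above 47.0%.

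**Figure D1:**
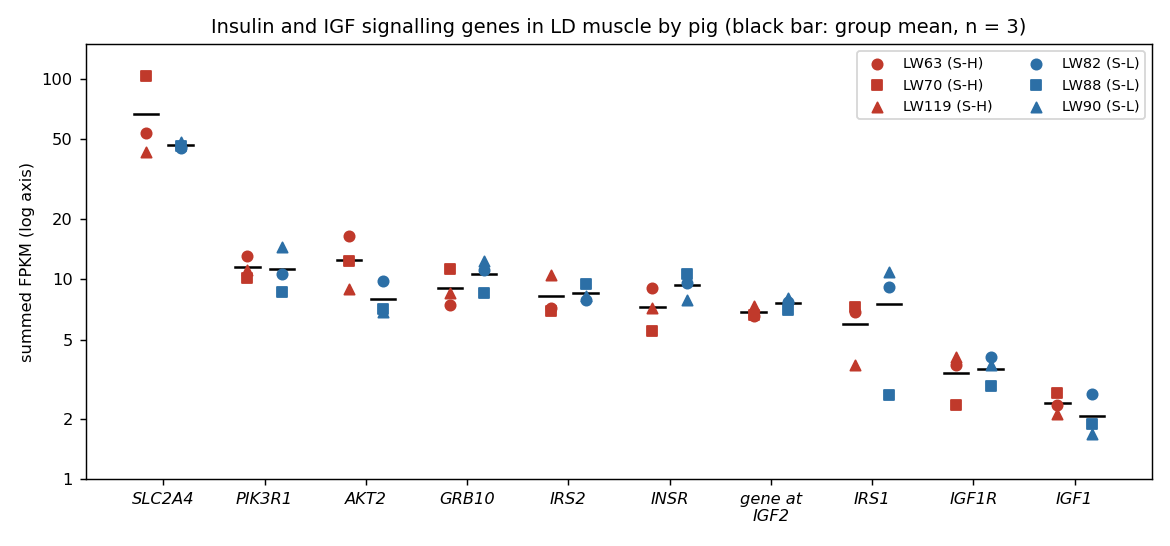
Summed FPKM (log axis) of the 9 insulin and IGF signalling genes and of the gene at the IGF2 position in each of the 6 pigs, S-H in red and S-L in blue, with black bars at the group means (n = 3). The groups overlap for every gene, SLC2A4 of LW70 stands at 104.3 FPKM above all other values, and IRS1 is lowest in LW88 (2.65 FPKM) and LW119 (3.74 FPKM).

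IGF1, the growth factor that muscle and liver both secrete, lies at chr5:81775970-81848037 of the Sus scrofa 11.1 assembly. Its sum was 2.37 FPKM in LW63, 2.70 FPKM in LW70 and 2.12 FPKM in LW119, and 2.66 FPKM in LW82, 1.89 FPKM in LW88 and 1.69 FPKM in LW90. LW70 and LW82 were nearly level at the top, 1 from each group, and LW88 and LW90 were the lowest. The log2 fold change (S-H minus S-L, on the scale of log2(FPKM + 0.1), as in all that follows) was 0.21 with a 95% confidence interval from -0.43 to 0.86 (limma, adjusted p = 0.859). The direction of this difference rested on transcripts assembled from the reads, which made up 91.8% of the sum over the 6 pigs, and it was -0.13 when only Ensembl transcripts were summed and -0.015 after quantile normalization.

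Assembled transcripts of IGF1 carried the differences between pigs. TCONS_00204614 reached 2.13 FPKM in LW70 and was lowest in LW88 at 0.833 FPKM. TCONS_00204615 was 0.978 FPKM in LW63 and 0.909 FPKM in LW88, but was listed at 0 in LW90. It therefore gave 48.1% of the IGF1 sum in LW88 and none in LW90, and neither transcript separated the groups. Of the 8 Ensembl transcripts of IGF1, IGF1-208 was present in all 6 pigs at 0.258 FPKM or less.

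No transcript of the table carries the symbol IGF2, a growth factor expressed from the paternal allele. The gene ENSSSCG00000035293 at chr2:1469132-1496442 covers 100% of the RefSeq IGF2 span of the same assembly, and 99.7% of it lies inside that span. Before any further scaling its sum was the most even of the 10 described here, at 6.52 FPKM in LW63, 6.65 FPKM in LW70 and 7.38 FPKM in LW119, and at 7.70 FPKM in LW82, 7.07 FPKM in LW88 and 8.03 FPKM in LW90. The highest and lowest pigs differed 1.23-fold, and LW119 lay above LW88, so that the groups overlapped. With size factors they did not, since every S-H pig (5.79 to 6.999 FPKM) was below every S-L pig (7.38 to 9.84 FPKM), which held for 6.14% of all genes. The log2 fold change was then -0.35 and did not pass (limma, adjusted p = 0.828). Nor was this gene the most even with size factors, where IGF1 lay between 1.84 FPKM in LW119 and 2.84 FPKM in LW70. In FPKM the log2 fold change of the gene at the IGF2 position was -0.15 (95% confidence interval from -0.65 to 0.35; limma, adjusted p = 0.879). Insulin itself, INS at chr2:1496842-1497841, was listed at 0 in all 6 pigs.

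Behind this sum, even in FPKM, the transcripts at the IGF2 position differed between pigs. ENSSSCT00000039341 held 97.4% of the sum in LW63, 99.6% in LW70, 96.4% in LW119 and 99.8% in LW90, but it was listed at 0 in LW82 and held 31.5% in LW88. In LW82 another transcript, ENSSSCT00000050274, held 75.6% of the sum, and in LW88 ENSSSCT00000049151 held 54.9%. All 3 S-H pigs and LW90 thus shared 1 leading transcript, and the other two S-L pigs each had a leading transcript of their own. When the transcript with the highest mean stood for the gene, the log2 fold change was 2.46, in the direction opposite to that of the sum, and it did not pass.

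INSR, the insulin receptor, lies at chr2:71797204-71936139. It was 9.04 FPKM in LW63, 5.50 FPKM in LW70 and 7.17 FPKM in LW119, against 9.62 FPKM in LW82, 10.6 FPKM in LW88 and 7.89 FPKM in LW90. LW63 of the S-H group lay above LW90 of the S-L group, and the remaining S-H pigs lay below all S-L pigs. The means were 7.24 ± 1.77 FPKM in S-H and 9.37 ± 1.37 FPKM in S-L (SD, n = 3 each), and the log2 fold change was -0.39 (SE 0.27, 95% confidence interval from -0.99 to 0.21; limma, adjusted p = 0.728).

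The difference in INSR depended on the scaling between libraries, with a log2 fold change of -0.55 and an unadjusted p below 0.05 after quantile normalization, but -0.25 and a p above 0.05 in TPM. It was -0.21 without LW70. With the values divided by median-ratio size factors, every S-H pig (5.79 to 8.04 FPKM) was below every S-L pig (9.28 to 11.1 FPKM). On this scale the log2 fold change was -0.59 (SE 0.22, 95% confidence interval from -1.09 to -0.09; limma, adjusted p = 0.769), with an unadjusted p below 0.05. Under this scaling every S-H pig was below every S-L pig for 6.14% of all genes, and 6.37% had an unadjusted p below 0.05, so that 1 gene of 9 with each of these properties is near what all genes gave.

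INSR was the sum of 2 Ensembl transcripts. INSR-202 held 83.7% of the sum over the 6 pigs and lay between 5.03 FPKM in LW70 and 8.05 FPKM in LW63. INSR-201 was 0.997 FPKM in LW63, 0.476 FPKM in LW70 and 0.574 FPKM in LW119, against 2.46 FPKM in LW82, 2.88 FPKM in LW88 and 0.733 FPKM in LW90. LW82 and LW88 stood apart from the other four pigs, among which LW90 lay within the S-H range.

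The share of INSR-201 in the INSR sum followed the same split, with 25.5% in LW82 and 27.1% in LW88, and between 8.01% and 11.0% in the remaining pigs. Its log2 fold change was -1.30 (SE 0.58, 95% confidence interval from -2.69 to 0.10), and it did not pass (limma over transcripts, adjusted p = 0.848). It passed both thresholds only when LW90 was left out, with a log2 fold change of -1.87 (SE 0.44; limma, adjusted p = 0.624). The table does not say which exons the 2 transcripts hold.

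IGF1R, the receptor for IGF1 and IGF2, lies at chr1:137387925-137690666. It was 3.73 FPKM in LW63, 2.36 FPKM in LW70 and 4.08 FPKM in LW119, and 4.09 FPKM in LW82, 2.92 FPKM in LW88 and 3.72 FPKM in LW90. The highest pigs of the 2 groups were level. The log2 fold change of -0.10 (95% confidence interval from -0.77 to 0.57; limma, adjusted p = 0.941) turned to 0.031 in TPM. LW70 was the lowest of the 6 pigs for both IGF1R and INSR.

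IRS1 and IRS2 encode the main docking proteins of both receptors. IRS1, at chr15:128245846-128308335, was 6.87 FPKM in LW63, 7.29 FPKM in LW70 and 3.74 FPKM in LW119, and 9.16 FPKM in LW82, 2.65 FPKM in LW88 and 10.8 FPKM in LW90. The spread was within the groups, since the S-L group held the highest and the lowest pig, 4.09-fold apart. This was the widest range of the 9 genes, and the coefficient of variation was 32.5% in S-H and 57.3% in S-L. The log2 fold change was -0.17 with the largest SE of the 9 genes, 0.51, and a 95% confidence interval from -1.32 to 0.99 (limma, adjusted p = 0.944). It was -0.79 without LW88, and it turned positive without LW119 (0.14), LW82 (0.087) or LW90 (0.21).

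The transcripts of IRS1 differed in LW70. IRS1-201 held 68.5% of the sum over all pigs and followed the gene, with 2.04 FPKM in LW88 and 7.69 FPKM in LW90. The assembled transcript TCONS_00116520 was between 0.586 FPKM and 2.99 FPKM in the other five pigs and 0.034 FPKM in LW70. In its place LW70 had 1.54 FPKM of the assembled transcript TCONS_00116521, listed at 0 in the other five pigs, and 1.31 FPKM of IRS1-202, which was at most 0.066 FPKM elsewhere.

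IRS2, at chr11:76626179-76653881 and with a single transcript, was the steadier docking gene. It was 7.20 FPKM in LW63, 6.95 FPKM in LW70 and 10.6 FPKM in LW119, and 7.86 FPKM in LW82, 9.51 FPKM in LW88 and 8.27 FPKM in LW90. LW119 and LW88, the lowest pigs for IRS1, were the highest for IRS2 in FPKM. With size factors IRS2 was highest in LW90 (10.1 FPKM), the highest pig for IRS1, followed by LW88 (9.94 FPKM) and LW119 (9.14 FPKM). For IRS2 the log2 fold change was -0.075 (95% confidence interval from -0.65 to 0.50; limma, adjusted p = 0.951) and was 0.058 in TPM. IRS1 and IRS2 were within 1.31-fold of each other in LW63, LW70, LW82 and LW90, where the ratio IRS1/IRS2 was between 0.954 and 1.31, while the ratio was 0.355 in LW119 and 0.279 in LW88.

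GRB10 encodes the growth factor receptor bound protein 10, an adaptor that restrains insulin and IGF1 receptor signalling. At chr9:136580362-136742532, it was 7.47 FPKM in LW63, 11.2 FPKM in LW70 and 8.57 FPKM in LW119, against 11.1 FPKM in LW82, 8.53 FPKM in LW88 and 12.3 FPKM in LW90. LW70 lay among the high S-L pigs and LW88 among the low S-H pigs. The means were 9.08 ± 1.93 FPKM in S-H and 10.7 ± 1.94 FPKM in S-L (SD, n = 3 each), so that the difference of the means was smaller than the SD of either group. For GRB10 the log2 fold change was -0.23 (SE 0.26, 95% confidence interval from -0.82 to 0.36; limma, adjusted p = 0.828). It kept its sign under every alternative setting tried and with each pig left out, with values between -0.43 and -0.017.

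The sum for GRB10 joined 4 Ensembl transcripts with 4 assembled transcripts, and the assembled ones held 36.5% of it, from 27.7% in LW70 to 54.7% in LW82. GRB10-201 was the leading transcript and the most even, between 2.67 FPKM in LW119 and 4.45 FPKM in LW70. GRB10-204 split the pigs across the groups, with 0.115 FPKM in LW63 and 0.133 FPKM in LW82 against 1.97 FPKM in LW119, 2.02 FPKM in LW88, 2.43 FPKM in LW70 and 3.33 FPKM in LW90. The low state was thus seen in 1 pig of each group. When GRB10-201, the transcript with the highest mean, stood for the gene, the log2 fold change was -0.017.

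The 2 most abundant of the 4 assembled transcripts of GRB10 were highest in LW82. TCONS_00286362 was 2.84 FPKM in LW82 and 2.03 FPKM in LW90, and between 0.929 FPKM and 1.45 FPKM in the remaining pigs. GRB10-OT1, the most abundant of 3 overlapping long noncoding RNAs that share the gene identifier, was 2.16 FPKM in LW82 and 1.17 FPKM in LW90, 0.749 FPKM in LW88, and 0.598 FPKM in LW63, 0.626 FPKM in LW70 and 0.827 FPKM in LW119. LW88 lay within the S-H range, and the log2 fold change of -0.79 did not pass (limma over transcripts, adjusted p = 0.859). The 3 noncoding RNAs together held between 14.7% and 29.0% of the GRB10 sum, so the sum is not a measure of the coding transcripts alone.

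The transcripts of the 9 genes gave no call either. The 9 genes had 43 transcripts, 34 from Ensembl and 9 assembled, of which 27 were above 0 in all 6 pigs, 9 were at 0 in some pigs and 7 at 0 in all. Of these, 28 were tested, 0 passed the thresholds (1.25% of all transcripts tested) and 0 had groups that did not overlap (11.3% of all).

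**Figure D2:**
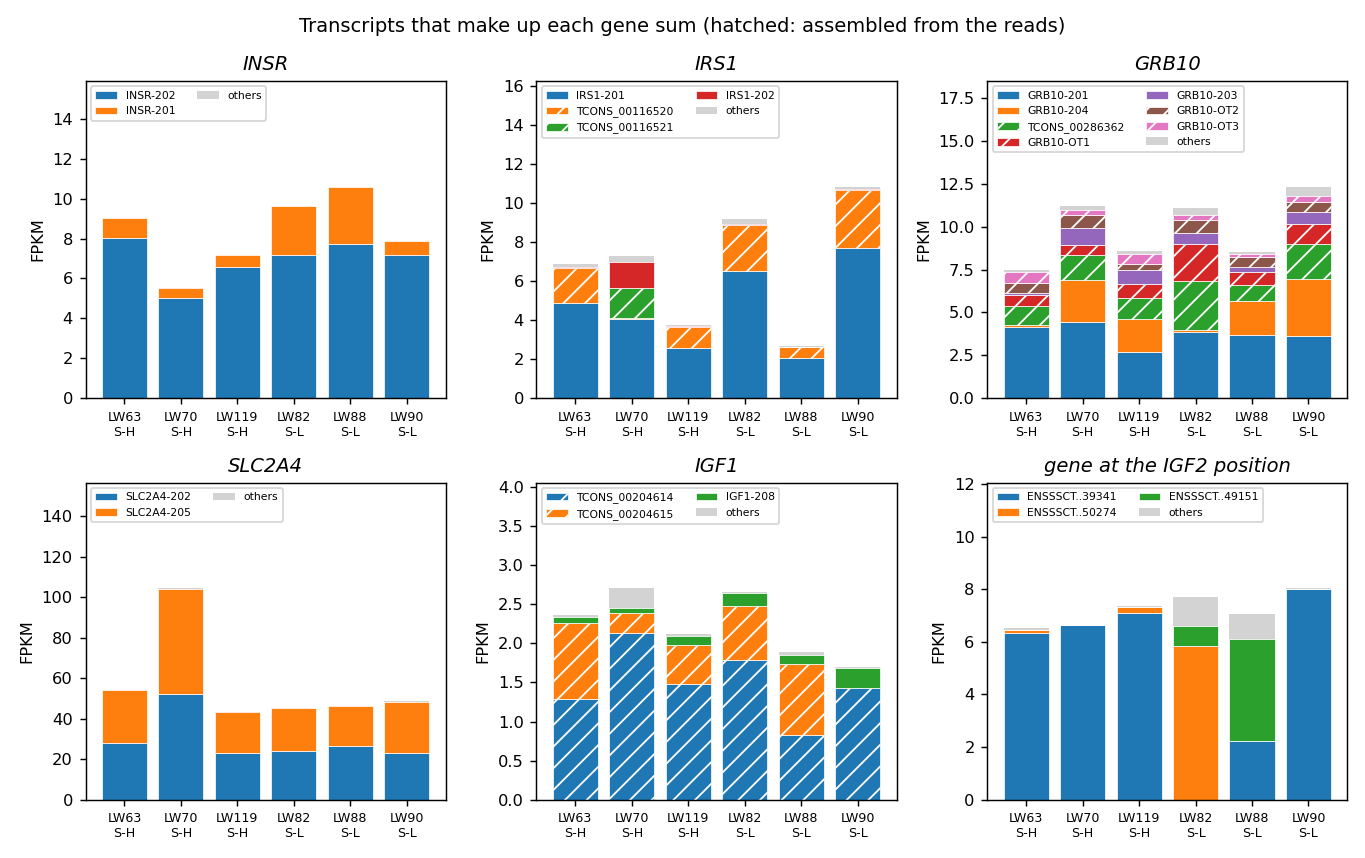
FPKM of the transcripts that make up the sums of INSR, IRS1, GRB10, SLC2A4, IGF1 and the gene at the IGF2 position in each pig, stacked, with transcripts assembled from the reads hatched (the ENSSSCT names are shortened to their last digits). INSR-201 is larger in LW82 and LW88, GRB10-204 is nearly absent in LW63 and LW82, and the leading transcript at the IGF2 position differs in LW82 and LW88.

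PIK3R1 encodes the p85alpha regulatory subunit of PI3K, the part that binds the docking proteins. At chr16:46434873-46523609, it was 13.0 FPKM in LW63, 10.2 FPKM in LW70 and 11.2 FPKM in LW119, and 10.6 FPKM in LW82, 8.67 FPKM in LW88 and 14.5 FPKM in LW90. The S-H pigs lay inside the S-L range. The log2 fold change of 0.047 (95% confidence interval from -0.54 to 0.64; limma, adjusted p = 0.970) was the closest to 0 of the 9 genes, and it was -0.15 with size factors and -0.095 after quantile normalization. PIK3R1-201 held 80.7% of the sum, and PIK3R1-202 held between 10.2% and 19.0% in each pig.

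AKT2, the AKT isoform that serves glucose uptake, had the largest difference of the 9 genes. At chr6:48555789-48587919, it was 16.4 FPKM in LW63, 12.3 FPKM in LW70 and 8.96 FPKM in LW119, against 9.83 FPKM in LW82, 7.12 FPKM in LW88 and 6.84 FPKM in LW90. LW119 lay below LW82, and the groups overlapped by this pair of pigs alone. The means were 12.5 ± 3.72 FPKM in S-H and 7.93 ± 1.65 FPKM in S-L (SD, n = 3 each). For AKT2 the log2 fold change was 0.63 (SE 0.29, 95% confidence interval from -0.02 to 1.28) and did not pass (limma, adjusted p = 0.665). It was 0.43 with size factors and 0.77 in TPM, where the unadjusted p was below 0.05, and it lay between 0.42 without LW63 and 0.85 without LW119. AKT2-204 held 97.5% of the sum.

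AKT2 was highest in the pigs with the highest summed adipocyte markers. The FPKM of 11 adipocyte markers summed to 1687 in LW63, 1076 in LW70 and 646 in LW119, against 554 in LW82, 477 in LW88 and 539 in LW90, and RETN was at 0 in all pigs but LW119. Of these markers, picked after their values were seen, ADIPOQ, PLIN1, FABP4, LEP and CIDEC passed the thresholds, beside 1.25% of all genes. All 5 were higher in S-H, and with size factors PLIN1, LEP and CIDEC still passed while ADIPOQ and FABP4 did not. Bulk muscle RNA holds fibres, adipocytes and other cells, and a difference in the number of cells of a type cannot be told apart from a difference in RNA per cell. The part of adipocytes in the AKT2 values was not tested. AKT1, the isoform linked with growth and given here for the ratio below, had a log2 fold change of 0.53 (95% confidence interval from -0.02 to 1.09; limma, adjusted p = 0.666).

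SLC2A4 encodes GLUT4, the glucose transporter of muscle and fat that insulin calls to the cell surface. At chr12:52628450-52634967, it was 54.1 FPKM in LW63, 104.3 FPKM in LW70 and 43.4 FPKM in LW119, against 45.5 FPKM in LW82, 46.4 FPKM in LW88 and 48.8 FPKM in LW90. LW70 stood alone at the top, and the other two S-H pigs lay on either side of the S-L range, which was narrow in FPKM. The coefficient of variation in FPKM was 48.3% in S-H and 3.68% in S-L. With size factors the S-L range widened to between 43.9 and 59.9 FPKM (50.7 ± 8.23 FPKM, SD, n = 3). LW63 then lay inside it at 48.1 FPKM, and LW70 stayed at the top at 109.7 FPKM.

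The log2 fold change of SLC2A4 was 0.42 (SE 0.32, 95% confidence interval from -0.31 to 1.14; limma, adjusted p = 0.749), and it was 0.048 without LW70. Both leading transcripts were high in LW70, where SLC2A4-202 was 52.0 FPKM and SLC2A4-205 was 52.2 FPKM. In the other five pigs they lay between 23.0 and 28.1 FPKM and between 19.9 and 26.0 FPKM. LW70 also had the highest summed FPKM of the 6 skeletal muscle markers found (12257, against 6880 to 10095 in the other pigs). With size factors (0.951 in LW70 and 0.816 in LW90) its lead over LW90 was smaller. Of the 12 markers listed, ACTA1, TTN, MYH1, MYH2, MYH4 and MB were not found by name. Of the 6 found, only CKM was in FPKM itself highest in LW70, at 3939 FPKM. In FPKM DES was highest in LW119, TNNT3 and ACTN2 in LW90, and MYH7 and TNNT1 in LW63. The part of fibre content in the SLC2A4 value was not tested.

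Over the 9 genes, 4 had a positive and 5 a negative log2 fold change, with a median of -0.075. Of all genes tested 70.6% had a positive log2 fold change, with a median of 0.19, so that the genes followed here lay on the lower side of the table in FPKM. The all-gene median moved to 0.0068 with size factors and to 0.32 in TPM. With size factors the median of the 9 genes was -0.28, and 3 of 9 were positive against 50.8% of all genes. The 9 genes are few and were chosen with earlier results known, and nothing particular to them is read from these medians.

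The intervals show what 3 pigs against 3 could resolve. The SE of the log2 fold change lay between 0.25 and 0.51, and for 6 of the 9 genes the 95% confidence interval stayed inside a log2 fold change of 1 in either direction. SLC2A4 and AKT2 had intervals that reached past 1 on the side of higher values in S-H, and IRS1 had one that reached past -1. A p value that misses the threshold does not show that the groups were equal.

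**Figure D3:**
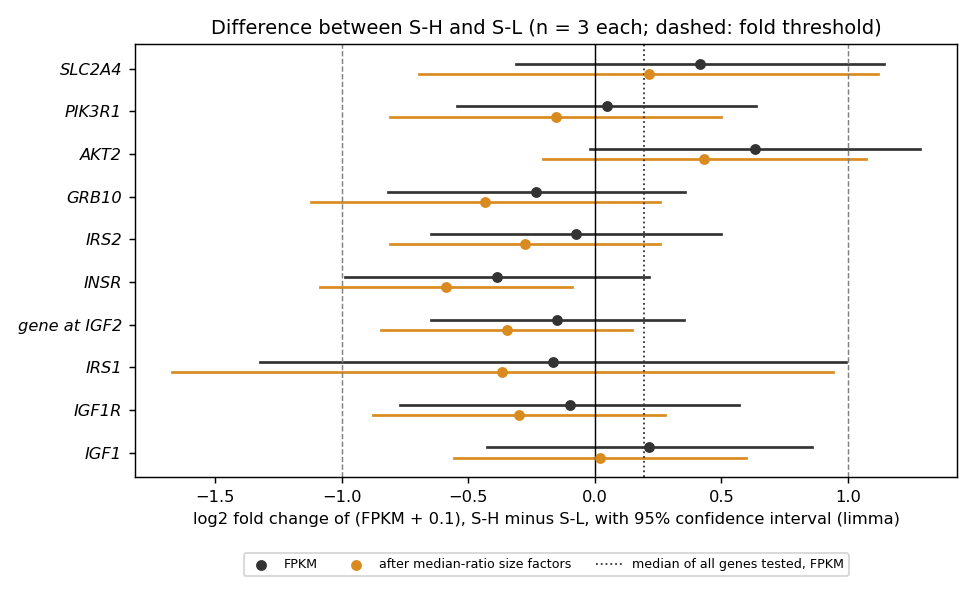
Log2 fold change (S-H minus S-L, n = 3 each) of log2(FPKM + 0.1) with its 95% confidence interval from limma, for FPKM (black) and after division by size factors (orange), with the fold threshold dashed and the all-gene median in FPKM dotted. The intervals in FPKM all include 0, AKT2 lies farthest to the right at 0.63 and INSR farthest to the left at -0.39, and of the intervals drawn, that of INSR after division by size factors alone excludes 0.

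Ratios of 2 genes deposited in the same unit do not depend on the scaling between libraries, and 10 ratios were computed within a pig. Those with the gene at the IGF2 position do depend on the factor per pig (0.639 to 0.847) that converted it from TPM. The groups overlapped for all 10, and the exact two-sided permutation p values lay between 0.20 and 1.0, where 0.10 is the smallest that 3 pigs against 3 allow (adjusted p = 1 for each over the 10 ratios). The ratio of the GRB10 sum to the INSR sum was 0.826 in LW63, 2.04 in LW70 and 1.20 in LW119, and 1.15 in LW82, 0.804 in LW88 and 1.56 in LW90. The S-L pigs thus lay inside the S-H range but for LW88. The GRB10 sum includes assembled and noncoding transcripts, between 27.7% and 54.7% of it in a pig, so these are not ratios of inhibitor to receptor. The log2 difference of GRB10/INSR was 0.16, and 0.30 with Ensembl transcripts only. GRB10/IGF1R was 2.003 in LW63, 4.76 in LW70 and 2.10 in LW119, against 2.71 in LW82, 2.93 in LW88 and 3.31 in LW90, so that GRB10 exceeded IGF1R in 6 of 6 pigs and the S-L pigs fell between the S-H pigs.

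GRB10 was the main member of its adaptor family in this muscle. The GRB10 sum, which includes assembled and noncoding transcripts, was between 10.8 and 102.0 times that of GRB14, a related inhibitor of the insulin receptor. GRB14 lay between 0.084 FPKM in LW119, where the ratio was 102.0, and 0.692 FPKM in LW63. GRB7 did not reach the minimum for testing. INSR exceeded IGF1R in every pig, with IGF1R/INSR between 0.275 in LW88 and 0.569 in LW119. AKT2 was less abundant than AKT1 in every pig, with AKT2/AKT1 between 0.280 in LW88 and 0.590 in LW82. IGF1 was between 0.211 and 0.406 of the gene at the IGF2 position, and this ratio had the lowest p value (0.20), with a log2 difference of 0.38 that was -0.15 when only Ensembl transcripts were summed.

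**Figure D4:**
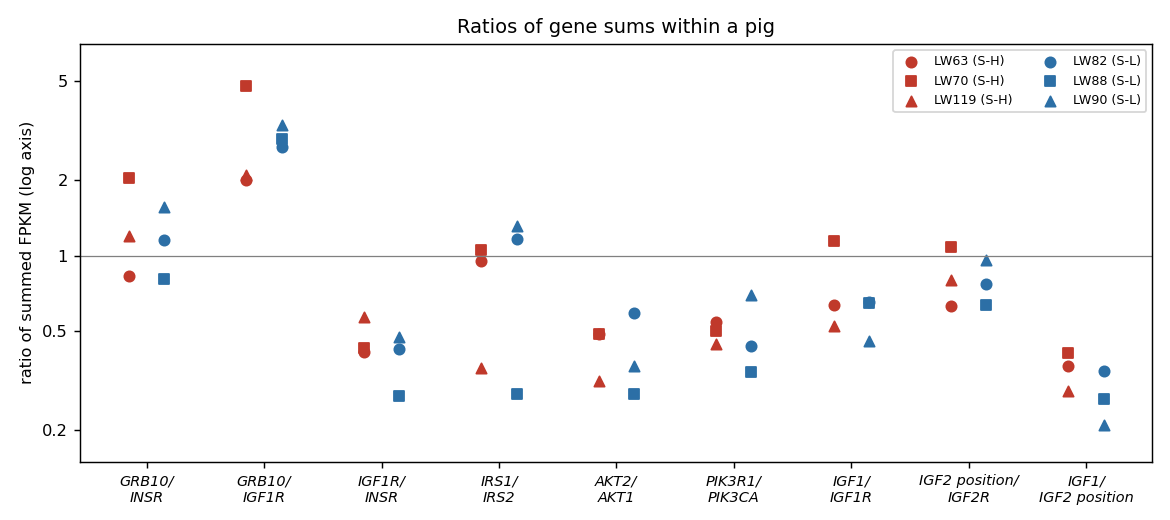
Ratio of summed FPKM of 2 genes within each pig (log axis) for 9 of the 10 ratios computed, S-H in red and S-L in blue (GRB10/GRB14 lies outside the axis range and is not drawn). The groups overlap in every ratio, LW70 is the highest pig for GRB10/INSR (2.04) and GRB10/IGF1R (4.76), and IRS1/IRS2 is lowest in LW119 (0.355) and LW88 (0.279).

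Other genes of the pathway were listed by role, from general knowledge, as 125 names in 6 lists. Of these 110 were in the table and 104 were tested, of which 0 passed the thresholds, beside 1.25% of all genes. The unadjusted limma p value was below 0.05 for 2 of the 104, FOXO1 and IGFBP4, against 7.45% of all genes. With size factors it was below 0.05 for 5 of the 104, against 6.37% of all genes, and these were FOXO1, MDM2, PDPK1, PIK3R3 and RICTOR, each lower in S-H, with IGFBP4 no longer among them. The median log2 fold change was 0.14 (0.19 over all genes), with 67 positive and 37 negative values, and it was -0.046 with 45 positive values with size factors. Counts of positive values by list are therefore given below for both, beside 70.6% of all genes positive in FPKM and 50.8% with size factors. The groups did not overlap for 6 of the 104 genes in FPKM (5.77%, against 14.0% of all genes). In these 6 every S-H pig lay above every S-L pig, the direction that also prevailed in the table. Every S-H pig lay above every S-L pig for 11.9% of all genes, and below for 2.06%.

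Among the genes that bind or clear IGF, 7 of 12 had a positive log2 fold change (6 with size factors). IGFBP4, a binding protein that holds IGF away from its receptor, was 13.8 FPKM in LW63, 8.81 FPKM in LW70 and 10.7 FPKM in LW119, and 5.77 FPKM in LW82, 9.39 FPKM in LW88 and 2.47 FPKM in LW90. LW88 lay above LW70, and the log2 fold change was 1.08 (95% confidence interval from 0.08 to 2.07; limma, adjusted p = 0.662). IGFBP4 passed the thresholds without LW88 (1.51) and was 0.56 without LW90, and with size factors it was 0.88 with an unadjusted p above 0.05. IGFBP7 was the most abundant of the list with a mean of 159 FPKM, and STC2, which inhibits the protease that frees IGF from its binding proteins, had the most negative value at -0.41. IGF2R, the receptor that takes up IGF2 for degradation, lay between 6.16 FPKM in LW70 and 11.2 FPKM in LW88.

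Among receptors and docking adaptors, 10 of 16 had a positive log2 fold change (8 with size factors). CAV1, the caveolin of fat and endothelial cells, was 194.5 FPKM in LW63, 205.3 FPKM in LW70 and 185.8 FPKM in LW119, against 152.3 FPKM in LW82, 167.3 FPKM in LW88 and 153.3 FPKM in LW90. Its groups did not overlap in FPKM, but they did after division by size factors. The log2 fold change of 0.31 did not pass (limma, adjusted p = 0.728), and it was 0.11 with size factors. The summed FPKM of 10 endothelial markers was likewise between 177 and 187 in S-H and between 113 and 158 in S-L, but single markers separated the groups for PECAM1 and CLDN5 only, of which CLDN5 passed the thresholds, and VWF and KDR had lower mean FPKM in S-H. In FPKM the summed adipocyte markers given above also lay higher in every S-H pig. With size factors of 1.15 in LW119 and 0.816 in LW90, this order did not hold for that pair of pigs. Among single adipocyte markers the groups overlapped in FPKM for PLIN4, GPD1, CFD and RETN. The part of either cell type in the CAV1 values was not tested. CAV3, the muscle caveolin, was 21.1 FPKM in LW119 and between 5.08 and 8.91 FPKM in the other five pigs.

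Among inhibitors of receptor signalling, 8 of 16 had a positive log2 fold change (7 with size factors). CISH, a cytokine-inducible suppressor of the SOCS family, was 0.428 FPKM in LW63, 1.96 FPKM in LW70 and 1.10 FPKM in LW119, and 0.367 FPKM in LW82, 6.88 FPKM in LW88 and 9.37 FPKM in LW90. LW82 was the lowest pig of all, and the log2 fold change of -1.52 (95% confidence interval from -3.84 to 0.79; limma, adjusted p = 0.726) was -2.90 and passed only without it. ENPP1, a membrane protein that inhibits the insulin receptor, had the most positive value at 0.79, with LW90 (2.33 FPKM) below all other pigs (6.79 to 10.1 FPKM). NEDD4, a ubiquitin ligase that GRB10 binds, was the most abundant of the list with a mean of 26.5 FPKM.

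Among PI3K subunits and lipid phosphatases, 9 of 15 had a positive log2 fold change in FPKM, but 4 of 15 with size factors. PIK3CA, the catalytic partner of PIK3R1, was the most abundant, between 20.4 FPKM in LW70 and 25.3 FPKM in LW88. PIK3R3, another regulatory subunit, had the most negative value at -0.73 (limma, adjusted p = 0.666), which turned to 0.63 when the transcript with the highest mean stood for the gene. PIK3R5, the regulatory subunit of the PI3K of blood cells, had the most positive at 0.60 with a mean of 0.570 FPKM. PIK3R1/PIK3CA lay between 0.343 in LW88 and 0.692 in LW90.

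Among AKT, mTOR and their targets, 18 of 27 had a positive log2 fold change in FPKM, but 10 of 27 with size factors. FOXO1, the transcription factor that AKT keeps out of the nucleus, was 7.13 FPKM in LW63, 9.39 FPKM in LW70 and 8.63 FPKM in LW119, against 9.25 FPKM in LW82, 17.0 FPKM in LW88 and 14.4 FPKM in LW90. LW70 lay just above LW82, and the log2 fold change was -0.65 (95% confidence interval from -1.29 to -0.014; limma, adjusted p = 0.663). It was -0.85 with size factors, and -0.52 with an unadjusted p above 0.05 in TPM. SESN3, a stress-induced regulator of mTOR, had the most positive value at 0.74 and passed only without LW82, with a log2 fold change of 1.26. SESN1 was the most abundant of the list with a mean of 114 FPKM.

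Among genes of GLUT4 traffic and glucose phosphorylation, 15 of 18 had a positive log2 fold change (10 with size factors), and the median was 0.23 (0.032 with size factors). RAB10, the small GTPase that moves GLUT4 vesicles in fat cells, was 63.9 FPKM in LW63, 71.2 FPKM in LW70 and 64.4 FPKM in LW119, against 50.7 FPKM in LW82, 49.5 FPKM in LW88 and 52.2 FPKM in LW90. The groups did not overlap in FPKM, but they did after division by size factors. The log2 fold change was 0.39 (95% confidence interval from -0.07 to 0.84; limma, adjusted p = 0.677) and 0.18 with size factors. RAB8A, its relative in muscle, had the most negative value at -0.63. HK1, which phosphorylates glucose after entry, had the most positive at 0.49, with 7.53 FPKM in LW119 and between 1.78 and 3.20 FPKM in the other five pigs. Its log2 fold change was -0.049 without LW119.

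**Figure D5:**
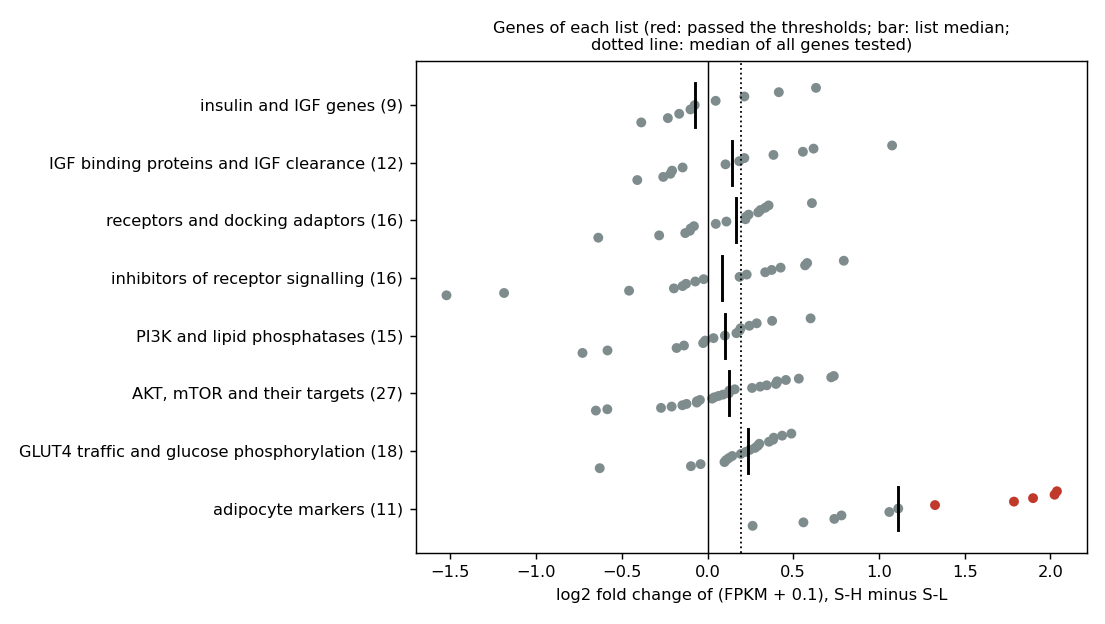
Log2 fold change (S-H minus S-L) of each gene tested in the insulin and IGF genes, in the 6 pathway lists and in the adipocyte markers, 1 point per gene, with a bar at each list's median and the all-gene median dotted, and the number of genes tested in brackets. No gene of the insulin and IGF lists passed the thresholds, beside 1.25% of all genes. The adipocyte markers were picked after their values were seen, in pigs chosen by fat content, and are no measure for the other lists. Of these 11 markers 5 (red) passed in FPKM, 3 of which also passed with size factors.

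The libraries held the RNA that muscle should hold, with CKM between 1985 and 3939 FPKM and TNNT3 between 1671 and 4437 FPKM. The summed FPKM of a library lay between 638536 in LW119 and 846661 in LW82, and the size factors between 0.816 in LW90 and 1.15 in LW119. Summed markers of fibroblasts (401 to 846 FPKM in S-H and 421 to 653 FPKM in S-L), macrophages (48.5 to 114.5 FPKM and 52.7 to 91.6 FPKM, LYZ at 0 throughout), blood (339 to 608 FPKM and 142 to 422 FPKM) and muscle stem cells (23.5 to 49.8 FPKM and 30.4 to 40.4 FPKM) overlapped between the groups. The blood sum was mostly HBB (137 to 600 FPKM) and the stem cell sum mostly MYOG (13.8 to 38.5 FPKM). Of single blood markers PPBP passed the thresholds (log2 fold change 2.04, at most 0.692 FPKM) and 5 did not, beside 1.25% of all genes that passed. The paper lists the fewest clean reads and the lowest share of uniquely mapped reads for LW88, and the part of this in its values was not tested. The depth behind single values is unknown, since FPKM gives no counts.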

How the data were processed

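RNA of LD muscle was sequenced from 3 S-H and 3 S-L pigs, grouped by the labels. As the paper describes, the authors mapped the reads onto Sus scrofa 11.1 (Hisat2) and built and measured transcripts with StringTie. Tool versions are not given in the sources used here. The authors deposited FPKM for 83119 transcripts (63041 Ensembl, 20078 assembled). The 21104 Ensembl transcripts without a symbol were found from the values to be in TPM, and were multiplied by 1 factor per pig (0.639 to 0.847). Among the genes described, only the gene at the IGF2 position is touched by this step.

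FPKM were summed over transcripts that share a gene identifier. Genes and transcripts that averaged 0.1 FPKM or more were tested on log2(FPKM + 0.1), a scale that understates changes of weakly expressed genes, with limma 3.58.1 (R 4.3.3, variance trend), over the whole table. Ratios were put to an exact permutation test, two-sided (Python 3.11.15, scipy 1.17.1). The limma step was tested on simulated data. The libraries were distinct, since at most 3 transcripts above 0 had the same value in any pair of pigs.

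The genes and lists were chosen with earlier results of these data known. The genes named were the 10 listed, those that enter a ratio, and of each list the genes with the largest positive and negative log2 fold change and the highest mean, beside every gene that passed. Of the genes this rule names, 1 is counted in its list but not reported here. Transcripts were named at 10% or more of a sum. Other genes and transcripts named, among them IRS1-202, TCONS_00116521 and the markers, were picked after their values were seen. A ratio SLC2A4/SLC2A1 was planned but not made, since no transcript of the table carries the name SLC2A1. The alternatives were pseudocounts of 1 and 0.01, minimum means of 0 and 1 FPKM, size factors, quantile normalization, TPM, Ensembl transcripts only, the transcript of highest mean, genes with a symbol only, values as deposited, limma without a trend or with robust variance, and each pig left out in turn.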

Additional observations from a re-analysis of the deposited data

How the results depend on the processing

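None of the 9 genes passed under any alternative or with any pig left out. No paired analysis was possible because S-H and S-L hold separate animals and the labels pair none. The number of genes that passed in the whole table was 204, against 81 with a pseudocount of 1, 118 with a mean of at least 1 FPKM, and between 134 and 297 with 1 pig left out (135 without LW63, 134 without LW90). Of the 204, 152 were higher and 52 lower in S-H, against 94 and 90 with size factors, so the share of each direction depends on the scaling. In the pathway lists 1 gene passed with the transcript of highest mean (TSC2), and between 0 and 2 with 1 pig left out (MDM2 without LW63, CISH and SESN3 without LW82, IGFBP4 without LW88). Among the transcripts of the 9 genes between 0 and 1 passed with 1 pig left out.

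The sign of some log2 fold changes turned in other settings, and the cause was not tested. In TPM IRS2 was 0.058, IGF1R 0.031 and PIK3CA 0.11. With size factors PIK3R1 was -0.15, PIK3R1-201 -0.11 and SESN1 -0.076, and with quantile normalization PIK3R1 was -0.095, IGF1 -0.015 and SESN1 -0.078. With Ensembl transcripts only IGF1 was -0.13, and the log2 difference was 0.0086 for GRB10/IGF1R, -0.13 for IGF1/IGF1R and -0.15 for IGF1 over the gene at the IGF2 position. With the transcript of highest mean it was 0.085 for GRB10/IGF1R and -0.34 for AKT2/AKT1, and the log2 fold change was 2.46 for the gene at the IGF2 position and 0.63 for PIK3R3.

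With 1 pig left out, the sign turned within these ranges of the log2 fold change: IRS1 -0.79 to 0.21, IRS2 and its transcript -0.27 to 0.033, PIK3R1 -0.12 to 0.25, IGF1R and its transcript -0.25 to 0.13, HK1 -0.049 to 0.96, IGFBP7 -0.0033 to 0.52, PIK3CA -0.11 to 0.064, SESN1 -0.19 to 0.46 and STC2 -1.47 to 0.40. For transcripts they were IRS1-201 -0.92 to 0.013, GRB10-201 -0.15 to 0.20, GRB10-204 -1.37 to 0.94, PIK3R1-201 -0.10 to 0.27, PIK3R1-202 -0.18 to 0.12, TCONS_00204614 -0.0023 to 0.51 and TCONS_00204615 -0.54 to 1.12. For ratios they were GRB10/INSR -0.19 to 0.46, GRB10/GRB14 -0.90 to 0.72, GRB10/IGF1R -0.54 to 0.089, IRS1/IRS2 -0.80 to 0.41, AKT2/AKT1 -0.14 to 0.40, PIK3R1/PIK3CA -0.15 to 0.35, IGF1/IGF1R -0.0034 to 0.57 and the gene at the IGF2 position over IGF2R -0.13 to 0.26.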

Other observations

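The 5 genes with a symbol whose profile over the 6 pigs was most like that of GRB10 (smallest Euclidean distance of z scored log2(FPKM + 0.1)) were SYT3 (0.467), ZNF821 (0.549), THSD7B (0.630), KDM8 (0.635) and WDR59 (0.645). SYT3 (0.044 to 0.273 FPKM) and THSD7B (0.076 to 0.196 FPKM) lay close to the minimum of 0.1 FPKM for testing. ZNF821 was 1.98 FPKM in LW63 and 3.75 FPKM in LW90, and like GRB10 was lowest in LW63 and highest in LW90. Among the genes followed, the closest pairs were AKT2 with IGF1 (1.62), IRS1 with PIK3R1 (1.76) and IRS1 with GRB10 (1.84). These distances are descriptions over 6 pigs that share libraries and carry no test.

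The low IRS1 values of LW119 and LW88 had a counterpart in other genes named above, picked here after their values were seen. NEDD4 was 13.4 FPKM in LW119 and 13.0 FPKM in LW88, and between 24.5 and 42.6 FPKM in the other four pigs. SESN1 was 71.8 FPKM in LW119 and 67.2 FPKM in LW88, and between 117 and 146 FPKM in the other four pigs. For IRS1, NEDD4 and SESN1 the pigs therefore split across the IMF groups and not between them.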
